A study of Mus musculus with 12 samples.

Results

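The G1 cyclins and their kinases were followed in mouse lung tumors and in normal mouse lung. Members were chosen by function, as 10 named genes: the D-type cyclins Ccnd1, Ccnd2 and Ccnd3, the E-type cyclins Ccne1 and Ccne2, the kinases Cdk2, Cdk4 and Cdk6, the phosphatase Cdc25a and the F-box protein Skp2. All 10 were found among the 30399 genes of the deposited table, 29982 of which have a symbol, and all 10 passed the filter on low values. The study made lung cancer models in mice by CRISPR/Cas9 mutagenesis without a viral vector. Poly-A selected RNA from tissue was sequenced for 5 samples labelled normal lung and 7 labelled tumor. The labels used here give the tissue alone, and do not give the strain, age, genotype, delivery or targeted genes of a sample, so what the tumors and normal lungs share or lack in alleles is not known here. The titles carry a number that tumors 3 and 4 share (159) and that tumors 5, 6 and 7 share (201). What the number stands for is not given. Nothing says which samples came from separate animals, so p-values measure the spread between these samples.

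Passage through G1 of the cell cycle is driven in steps. D-type cyclins, made in response to growth signals, bind Cdk4 or Cdk6 and begin the phosphorylation of the retinoblastoma protein and its relatives, which otherwise hold E2F transcription factors in check. E2F factors then switch on genes for DNA replication, cyclin E among them. Cyclin E binds Cdk2, which phosphorylates the same proteins further and helps to start replication. Cdc25a activates Cdk2 by removing inhibitory phosphates, and Skp2 is the part of an SCF ubiquitin ligase that marks the inhibitor p27 (Cdkn1b) for destruction.

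Values are reads per gene divided by a size factor for each library, called normalized counts here. Libraries held between 11126432 and 17032234 reads in normal lung and between 13093843 and 24217633 in tumors, and 3 reads were worth at most 4.85 normalized counts in a normal lung and 3.57 in a tumor. The member with the fewest reads in a sample, Ccne2, still had 9. Lung epithelial markers stood at summed levels of 342543 to 568283 in normal lung and 586 to 3940 in tumors. Neuroendocrine markers stood at 335 to 472 in normal lung and at 45110 or more in every tumor. Of the 12 lung epithelial genes, 4 were at 0 in some tumor and all 12 were called lower. Tumor 7, titled for the trachea, stood apart from the other tumors, with a summed leukocyte marker level of 35467 against 312 to 9133 and a summed heart muscle marker level of 40942 against 595 to 2957. Y-linked genes summed to 2536 in tumor 1 and to at most 8.08 in the other tumors, and to 0 in normal lung 3 against 2765 to 3113 in the other normal lungs. In bulk tissue, fewer cells of a type and less RNA per cell cannot be told apart.

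Of the 10 members, 6 were higher in tumors and 4 were lower by limma with Benjamini-Hochberg adjustment over 23674 genes (adjusted p under 0.05). The members that rose were Ccne1, Ccne2, Cdk2, Cdk4, Cdc25a and Skp2, and those that fell were Ccnd1, Ccnd2, Ccnd3 and Cdk6. Tumors and normal lung differed widely across the genome: 31.4% of all genes tested were called higher and 30.1% lower. Each member's log2 fold change was also at least 1 in size, against 24.0% of all genes called higher and 24.5% called lower by that rule. Every tumor lay above every normal lung for the 6 members that rose, against 20.1% of all genes. Every tumor lay below every normal lung for Ccnd1 and Ccnd2, against 18.4% of all genes. Tumor values of Ccnd3 and Cdk6 overlapped those of normal lung. The median log2 fold change was 1.39 over the members and 0.04 over all genes tested. Log2 fold changes are of value + 1 and so understate the change of low genes.

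**Figure D1:**
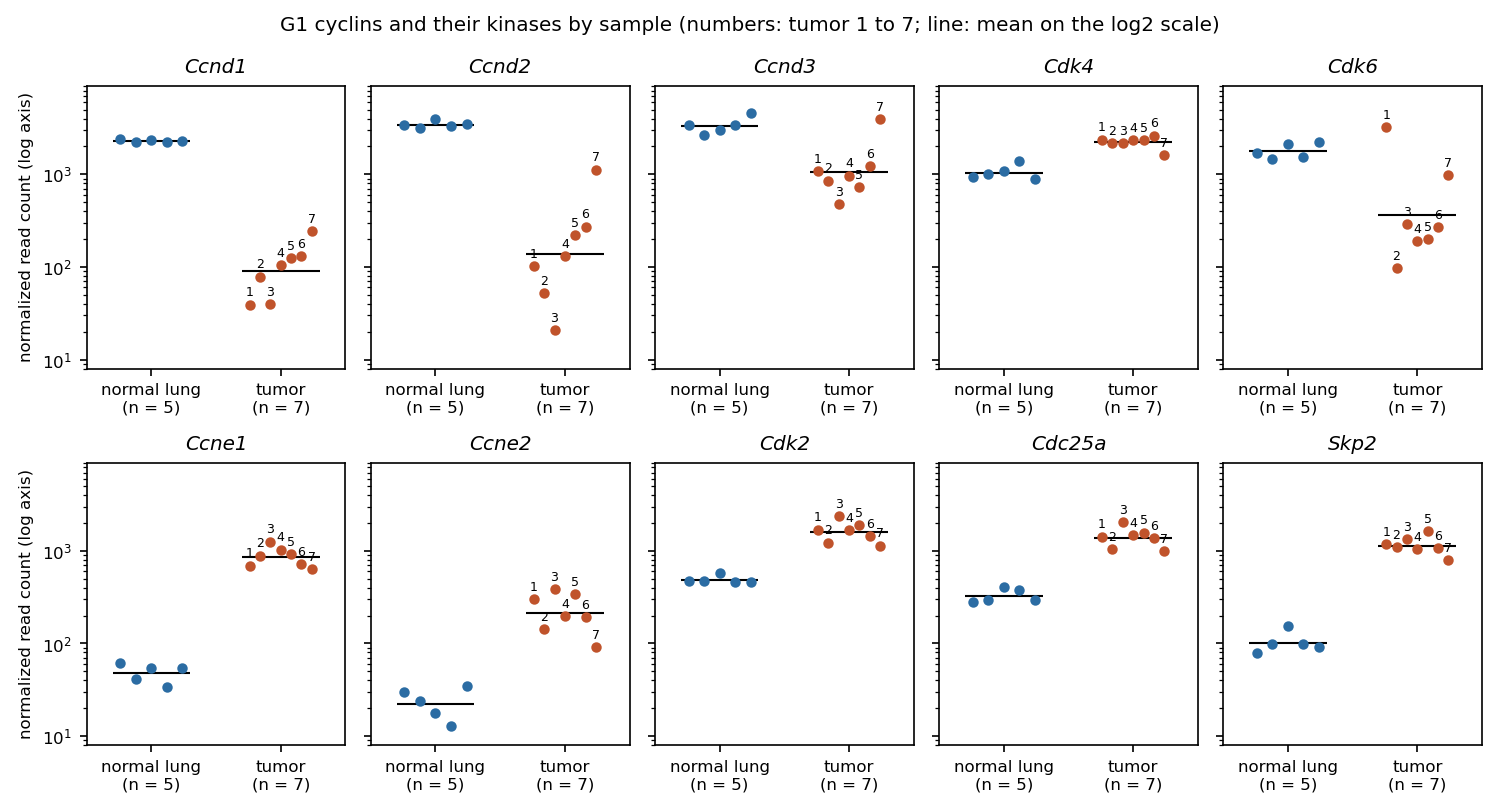
Normalized counts of the 10 members (log axis) in each of 5 normal lungs and 7 tumors, with 1 point per sample, tumors numbered 1 to 7, and a line at each group's mean taken on the log2 scale. The D-type cyclins and Cdk6 sit lower in most tumors, and the other 6 members sit higher in every tumor than in any normal lung.

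Among the D-type cyclins, Ccnd1 (cyclin D1) varied least over the normal lungs. Over the tumors its SD of log2 values, 0.94, was about that of Ccnd3, 0.95. Without tumor 7 the SD was 0.78 for Ccnd1 and 0.49 for Ccnd3. Normal lungs 1 to 5 had 2396, 2262, 2363, 2222 and 2308 normalized counts of Ccnd1, a mean of 2310.3 ± 71.2 (SD, n = 5). The tumors, in order from 1 to 7, had 39.3, 78.6, 39.7, 104, 125, 131 and 243, a mean of 109 ± 69.8 (SD, n = 7). The groups did not overlap, and the lowest normal lung had 9.15 times the highest tumor. Ccnd1 fell by 4.65 on the log2 scale (SE 0.39, limma adjusted p = 2.96e-07). Across all genes tested this was the 607th most negative fold change.

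Ccnd2 (cyclin D2) fell about as far but varied far more among tumors. Normal lungs had 3396, 3163, 3915, 3299.5 and 3478 normalized counts of Ccnd2, a mean of 3450.2 ± 285 (SD, n = 5). Counts in tumors 1 to 7 were 102, 52.4, 20.8, 130.2, 219, 272 and 1125, a mean of 274 ± 385 (SD, n = 7). Tumor 7 was the highest and tumor 3 the lowest, 54.0-fold apart, and no tumor reached normal lung. The log2 fold change of Ccnd2 was -4.62 (SE 0.72, limma adjusted p = 9.16e-05) and -5.12 without tumor 7, while edgeR on whole reads, without tumor 3, gave -3.33.

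The third D-type cyclin, Ccnd3, fell less. Normal lungs had 3449, 2682, 2986, 3441 and 4549 normalized counts of Ccnd3, a mean of 3421 ± 709 (SD, n = 5). Tumors 1 to 7 had 1074, 855, 475, 965, 723, 1233 and 3934, a mean of 1323 ± 1177 (SD, n = 7). Tumor 7 lay within the range of normal lung and the other 6 tumors lay below it. The log2 fold change of Ccnd3 was -1.67 (SE 0.39, limma adjusted p = 0.00225), and -1.99 without tumor 7. The table also lists a pseudogene, Ccnd3-ps, whose mean was 1939 ± 432 normalized counts (SD, n = 5) in normal lung against 292 ± 199 (SD, n = 7) in the tumors, a log2 fold change of -2.89 (SE 0.31, limma adjusted p = 3.87e-06). How reads that match both were divided is not given, so the level of Ccnd3 is uncertain to that extent.

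Tumor 7 had the highest level of each D-type cyclin among the tumors. Its summed leukocyte, fibroblast and smooth muscle, and heart muscle markers, at 35467, 37698 and 40942 normalized counts, were also above those of every other tumor. H2-Aa alone had 26589 of the leukocyte sum. Not every marker was highest in tumor 7: Pdgfra had 781 there against 2949 in tumor 3, and Ncr1 had 1.28 against 4.43 in tumor 1. The part of these cell types in the D-type cyclin levels of tumor 7 was not tested. Without tumor 7 all 3 D-type cyclins were still called lower. Endothelial markers, 10 of 10 called lower, had sums of 72738 to 88024 in the normal lungs against 2699 to 7530 in the tumors, none of the 10 genes being at 0 in a tumor. The highest tumor sum, in tumor 1, held 6522 from Vwf alone, a level within the 3221 to 9569 of normal lung. Leukocyte markers, 11 of 12 called lower, summed to 11394 to 27690 in normal lung, and 5 of the 12 were at 0 in some tumor. The part of these cells in the fall of the D-type cyclins was not tested.

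Cdk4 and Cdk6, the kinases that D-type cyclins activate, went in opposite directions. Cdk4 stood at 945, 998, 1082, 1378 and 883 normalized counts in the normal lungs, a mean of 1057 ± 194 (SD, n = 5). In tumors 1 to 7 it stood at 2373, 2175, 2183, 2349, 2332, 2615 and 1624, a mean of 2236 ± 307 (SD, n = 7). The groups did not overlap, but the lowest tumor, tumor 7, exceeded the highest normal lung by only 1.18-fold. Cdk4 had the smallest fold change of the members, 1.08 on the log2 scale (SE 0.15, limma adjusted p = 3.12e-05).

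Cdk6 depended on the tumor. Normal lungs had 1687, 1450.4, 2116, 1532 and 2219.9 normalized counts of Cdk6, a mean of 1801 ± 347 (SD, n = 5). Counts in tumors 1 to 7 were 3245, 96.5, 289, 189, 199, 271 and 981, a mean of 753 ± 1138 (SD, n = 7). Tumor 1 was above every normal lung, and the other 6 tumors were below every normal lung. The log2 fold change of Cdk6 was -2.27 (SE 0.68, limma adjusted p = 0.0106). It was -2.79 without tumor 1 and -3.18 without tumors 1 and 7, both titled for the trachea.

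The call for Cdk6 did not hold in all alternatives. On whole reads, without tumor 3, edgeR gave -1.01 (adjusted p = 0.285) and DESeq2 gave -1.10 (adjusted p = 0.212). Tumor 3, at 289, was below every normal lung but above the tumor median of 271. With tumor 3 left out, limma still called 4 members lower, Cdk6 among them. With the level of Y-linked genes as a covariate, limma gave -1.21 (adjusted p = 0.228). Tumor 1 had a summed Y-linked level of 2536, against at most 8.08 in the other tumors.

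The E-type cyclins rose. Ccne1 (cyclin E1) stood at 61.9, 40.9, 54.9, 33.9 and 54.0 normalized counts in the normal lungs, a mean of 49.1 ± 11.4 (SD, n = 5). The tumors, in order from 1 to 7, had 690.1, 889, 1254, 1027, 918, 718 and 635 normalized counts of Ccne1, a mean of 876 ± 218 (SD, n = 7). The lowest tumor, tumor 7, had 10.3 times the highest normal lung. The log2 fold change of Ccne1 was 4.12 (SE 0.22, limma adjusted p = 5.29e-09), the largest rise among the members and the 925th highest over all genes tested.

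Ccne2 (cyclin E2) stood below Ccne1 per kilobase of exon in every sample. Normal lungs had 29.7, 23.7, 17.8, 12.7 and 34.5 normalized counts of Ccne2, a mean of 23.7 ± 8.78 (SD, n = 5). Tumors 1 to 7 had 301, 143, 386, 197, 339.7, 192 and 91.6, a mean of 236 ± 108 (SD, n = 7). The groups did not overlap, with a gap of 2.66-fold. Ccne2 rose by 3.20 on the log2 scale (SE 0.38, limma adjusted p = 9.20e-06).

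Cdk2, the partner of cyclin E, rose less than either cyclin. Normal lungs had 471, 473, 579.8, 458 and 463 normalized counts of Cdk2, a mean of 489 ± 51.1 (SD, n = 5). Tumors 1 to 7 had 1689, 1221, 2359, 1663, 1904, 1431 and 1139, a mean of 1629 ± 420.1 (SD, n = 7). Every tumor was above every normal lung, with a gap of 1.96-fold. The log2 fold change of Cdk2 was 1.70 (SE 0.18, limma adjusted p = 2.90e-06).

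Cdc25a, which removes inhibitory phosphates from Cdk2, stood at 279, 298, 404, 375 and 295 normalized counts in the normal lungs, a mean of 330.2 ± 55.6 (SD, n = 5). In tumors 1 to 7 it stood at 1417, 1049.5, 2041, 1472, 1570.1, 1376 and 985, a mean of 1416 ± 351 (SD, n = 7). The groups were 2.44-fold apart at their nearest samples, and tumor 3 was the highest tumor, as for Cdk2, Ccne1 and Ccne2. Cdc25a rose by 2.08 on the log2 scale (SE 0.19, limma adjusted p = 6.76e-07).

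Skp2, which brings p27 to its ubiquitin ligase, rose more than the kinases. Normal lungs had 78.7, 97.8, 153, 98.7 and 92.0 normalized counts of Skp2, a mean of 104 ± 28.7 (SD, n = 5). Counts in tumors 1 to 7 were 1186, 1102, 1347, 1048, 1623, 1070.1 and 792, a mean of 1167 ± 261 (SD, n = 7). Every tumor was above every normal lung, with a gap of 5.16-fold. The log2 fold change of Skp2 was 3.48 (SE 0.20, limma adjusted p = 1.22e-08), and it ranked 1308th highest over all genes tested.

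E2F factors bind a short promoter element, and promoters were searched for it because cyclin E, Cdk2 and Cdc25a are among the genes of this pathway. RefSeq promoters (GRCm38.p6, 250 bases before to 50 after the start) were matched for 7 of the 10 members. Ccnd1, Ccnd2 and Ccne2 were not matched. The letters TTTCCCGC, TTTCGCGC, TTTGCCGC and TTTGGCGC were searched on both strands, and 2 of the 7 members, Cdk2 and Cdc25a, held a match. Ccne1 held no match. Across all 32851 promoters of the same length, 744 (2.26%) held one. That share counts promoters, whereas members are counted as genes, and Ccnd3 and Skp2 had 2 promoters each. The windows around both matches are shown 5′ to 3′ on the gene's strand, with the matched letters in capitals, for Cdk2 on the minus strand (chr10:128705144-128705231) and for Cdc25a on the plus strand (chr9:109875472-109875559). In Cdk2 the letters are the reverse complement of TTTCCCGC.
Cdk2: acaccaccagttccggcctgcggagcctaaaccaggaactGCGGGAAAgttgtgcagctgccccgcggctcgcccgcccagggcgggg
Cdc25a: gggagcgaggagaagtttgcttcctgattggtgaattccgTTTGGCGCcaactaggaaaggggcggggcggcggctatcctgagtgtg
A match is a description of letters, and no match in the other 5 members says only that these letters are not in those windows.

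Levels of different genes were compared per kilobase of annotated exon. The length used was that of all annotated exons of a gene together, which can differ from that of the transcripts present. The orders, sums and shares per kilobase rest on it. In normal lung the order was Ccnd1 (491 ± 15.1 normalized counts per kilobase), Ccnd3 (389.9 ± 80.7), Ccnd2 (367 ± 30.3), Cdk4 (325 ± 59.6), Cdk6 (129 ± 24.8), Cdk2 (78.6 ± 8.21), Cdc25a (41.2 ± 6.93), Ccne1 (18.4 ± 4.29), Skp2 (13.2 ± 3.64) and Ccne2 (6.77 ± 2.51; SD, n = 5). Neighbours whose ranges of mean ± SD overlapped were Ccnd3 and Ccnd2, Ccnd2 and Cdk4, and Ccne1 and Skp2. In tumors the order was Cdk4 (688 ± 94.5), Ccne1 (329 ± 81.9), Cdk2 (262 ± 67.5), Cdc25a (176 ± 43.8), Ccnd3 (151 ± 134), Skp2 (148 ± 33.1), Ccne2 (67.4 ± 31.0), Cdk6 (53.8 ± 81.3), Ccnd2 (29.2 ± 40.9) and Ccnd1 (23.0 ± 14.8; SD, n = 7). Ccnd1 led the order in normal lung and was among the lowest in tumors. Its last place there rested on tumor 7: without it the mean of Ccnd2, 14.1 ± 10.3, was below that of Ccnd1, 18.3 ± 8.60 (SD, n = 6). Other places moved as well. Without tumor 7, Ccnd3 (101 ± 30.5) was below Skp2 (156 ± 28.1; SD, n = 6). Without tumors 1 and 7, Cdk6 (14.9 ± 5.45) was below Ccnd1 (20.3 ± 7.92; SD, n = 5). Neighbours that overlapped in this way in tumors were Ccne1 and Cdk2, Cdk2 and Cdc25a, and Cdc25a with Ccnd3 and Skp2. Ccne2 and Cdk6, Cdk6 and Ccnd2, and Ccnd2 and Ccnd1 overlapped too.

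Summed per kilobase, the D-type cyclins stood at 1122 to 1378 in normal lung and at 64.8 (tumor 3) to 619 (tumor 7) in tumors, with a tumor median of 142. The E-type cyclins stood at 16.4 to 31.7 in normal lung and at 265 (tumor 7) to 581 (tumor 3) in tumors. The D-type sum was 39.8 to 74.3 times the E-type sum in normal lung. In tumors 1 to 7 that ratio was 0.410, 0.320, 0.111, 0.330, 0.299, 0.607 and 2.34. Per kilobase, the E-type sum thus exceeded the D-type sum in 6 of 7 tumors and in no normal lung. That number of tumors rests on the lengths used. In counts not divided by length, Ccnd3 alone exceeded both E-type cyclins summed in tumors 1 and 6. Ccnd3 had 1074 and 1233 there, against 690 and 718 for Ccne1 and 301 and 192 for Ccne2.

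**Figure D2:**
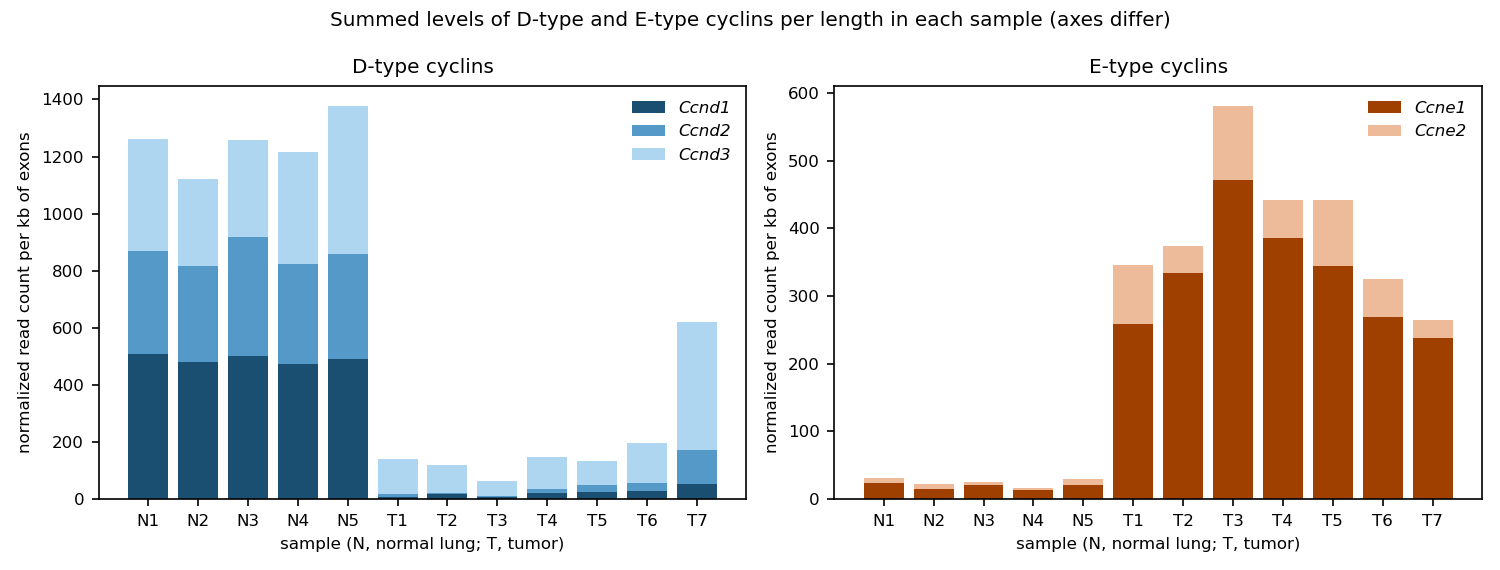
Normalized counts per kilobase of exon, with 1 stacked bar per sample for the 3 D-type cyclins (left) and the 2 E-type cyclins (right, on its own axis). The D-type sum is at least 1122 in normal lung and at most 619 in tumors, and the E-type sum is at most 31.7 in normal lung and at least 265 in tumors.

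The make-up of the D-type pool differed as well. Ccnd1 supplied 39.5% ± 2.63 of it in normal lung and 12.9% ± 4.63 in tumors, and Ccnd2 supplied 29.5% ± 2.31 and 11.0% ± 6.29 (SD, n = 5 and n = 7). Ccnd3 supplied 31.1% ± 4.33 in normal lung and 76.1% ± 8.35 in tumors, and was the greatest part in all 7 tumors. Of the sum of Cdk4 and Cdk6, Cdk4 made up 63.1% to 79.5% in normal lung. It made up 75.9% in tumor 1, 87.7% in tumor 7 and 97.0% to 99.0% in the other 5 tumors.

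Ratios between members within a sample, which depend little on library scaling (1 was added to each value), were compared by exact two-sided permutation tests over all splits into 5 and 7 samples. No p under 0.00126 is possible with these splits, and p-values were adjusted over the 6 ratios. Counts were not divided by exon length here, so the sign of a ratio does not tell which gene was higher per kilobase. The log2 ratio Ccnd1/Ccnd3 was -0.54 ± 0.29 over the normal lungs and -3.53 ± 0.70 over the tumors, lower by a difference of -2.98 (exact p = 0.00126, adjusted p = 0.00379). For Ccnd2/Ccnd3 the difference was -2.95 (exact p = 0.00126, adjusted p = 0.00379), with every tumor below every normal lung for both ratios. Ccnd3 thus fell less than the other D-type cyclins.

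The log2 ratio Ccnd1/Ccnd2 was -0.58 ± 0.10 over the normal lungs and -0.61 ± 1.09 over the tumors, and the difference of -0.03 did not pass (exact p = 0.949, adjusted p = 0.949). Among tumors this ratio ran from -2.21 in tumor 7 to 0.90 in tumor 3, so the balance of the pair varied between tumors with no common direction.

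Among the kinases, the log2 ratio Cdk4/Cdk6 was -0.76 ± 0.44 over the normal lungs and 2.59 ± 1.77 over the tumors, higher by a difference of 3.35 (exact p = 0.00379, adjusted p = 0.00568). Tumor 1, at -0.45, lay within the range of normal lung and the other 6 tumors lay above it. For Cdk4/Cdk2 the log2 ratio was 1.10 ± 0.28 over the normal lungs and 0.48 ± 0.33 over the tumors, lower by a difference of -0.62 (exact p = 0.00253, adjusted p = 0.00505). Cdk2 therefore rose more than Cdk4. The log2 ratio Ccne1/Ccne2 was 1.07 ± 0.39 over the normal lungs and 2.00 ± 0.61 over the tumors, higher by a difference of 0.93 (exact p = 0.0189, adjusted p = 0.0227), with overlap between the groups.

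**Figure D3:**
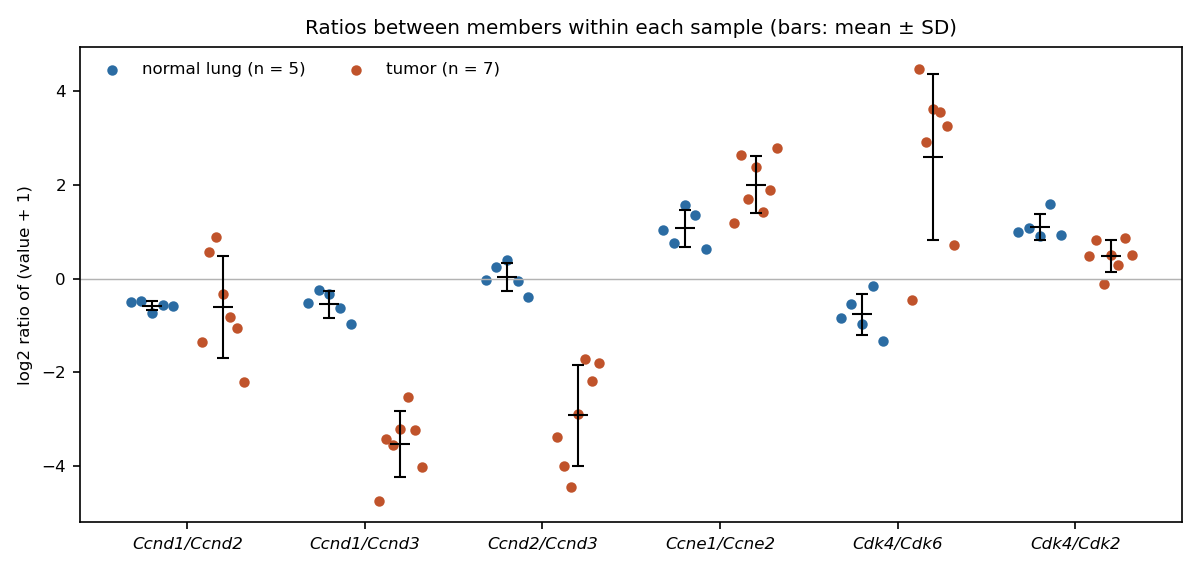
Log2 ratios between 6 pairs of members in each sample, from counts not divided by exon length, with 1 point per sample and black bars at each group's mean ± SD. Ccnd1/Ccnd3 and Ccnd2/Ccnd3 are lower in every tumor, Cdk4/Cdk6 is higher in all tumors but tumor 1, and Ccnd1/Ccnd2 spreads to both sides of normal lung.

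Over all 7 tumors, the members that fell had the widest spread, in part through tumors 1 and 7. The SD of log2 values over the 7 tumors was 1.81 for Ccnd2, 1.71 for Cdk6, 0.95 for Ccnd3 and 0.94 for Ccnd1, against 0.12, 0.28, 0.29 and 0.04 over the 5 normal lungs. For the members that rose it ran from 0.22 (Cdk4) to 0.74 (Ccne2) in tumors and from 0.14 (Cdk2) to 0.55 (Ccne2) in normal lung. From lowest to highest tumor, Cdk6 spanned 33.6-fold, Ccnd3 8.28-fold and Ccnd1 6.18-fold, while Cdk4 spanned 1.61-fold, Ccne1 1.98-fold and Skp2 2.05-fold. Without tumor 7 the span of Ccnd3 was 2.60-fold, with an SD of 0.49 that was below the 0.56 of Ccne2, and the spans of Ccnd2 and Ccnd1 were 13.1-fold and 3.33-fold. Cdk6 spanned 10.2-fold without tumor 1 and 2.99-fold without tumors 1 and 7. The lowest tumor for Ccne1, Ccne2, Cdk2, Cdk4, Cdc25a and Skp2 was tumor 7 in each case. Its summed cycling markers, 23614 normalized counts, and its neuroendocrine markers, 45110, were also the lowest of the tumors. Their part in its levels of these members was not tested.

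Genes that act with the members were counted from lists of pathway genes, beside the 31.4% of all genes called higher and 30.1% called lower. The inhibitors that hold these kinases back were mostly higher: 6 of 7 CDK inhibitors rose and 1 fell. Cdkn2a, which encodes p16 and ARF, went from 42.3 ± 12.2 to 2054 ± 451 normalized counts (SD, n = 5 and n = 7; log2 fold change 5.59, limma adjusted p = 4.91e-10). Cdkn2c (p18) rose by 2.80 and Cdkn2d (p19) by 1.81 on the log2 scale, while Cdkn2b (p15), which also binds Cdk4 and Cdk6, fell by 2.91. The list's median log2 fold change was 1.71, against 0.04 over all genes tested.

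Of 13 pocket proteins and E2F factors, 9 rose, 1 fell and 3 were not called, with a median log2 fold change of 1.63. E2f7 and E2f8, E2F family members that repress transcription, rose by 5.44 and 4.89. Tfdp1, a partner with which E2F factors such as E2f1 dimerise, rose by 3.12 and E2f1 by 2.84. E2f5 was the 1 called lower, at -0.55 (limma adjusted p = 0.0401). That call was lost in 15 of 23 alternatives. Rb1, the retinoblastoma gene itself, falls outside the rule for named genes and was chosen after its values were seen. Its mean was 140 ± 22.6 normalized counts over the normal lungs (SD, n = 5) against 379 ± 61.0 over the tumors (SD, n = 7), with no overlap (log2 fold change 1.43, SE 0.18). The labels do not say whether Rb1 was targeted, and a read count does not show whether its sequence was intact.

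All 18 E2F target genes of the G1/S step that were tested rose, with a median log2 fold change of 3.27. Examples are Rrm2, a subunit of ribonucleotide reductase, at 4.82, Ccna2 (cyclin A2) at 4.23, Cdc6, which loads the replicative helicase, at 4.07, and Cdc45, part of that helicase, at 3.85. All 6 S and M phase cyclin and Cdk1 genes tested rose, with a median of 4.22, among them Cdk1 at 5.68, Ccnb1 at 5.53 and Ccnf at 4.21. Cycling markers rose in 11 of 11 genes, their sum going from 1683 to 3292 in normal lung to 23614 to 53680 in tumors. Cdk1, Ccnb1, Ccna2, Mcm2 and Pcna are in these markers and also in the lists just counted, so the counts are not independent.

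Of 8 genes listed around CDK phosphorylation, not all of them enzymes (Ccnh is a cyclin), 7 rose and 1 fell. Their median log2 fold change was 0.84. Cdc25c rose by 6.30 and Cdc25b by 2.17, both relatives of Cdc25a, and Pkmyt1, a kinase that inhibits Cdk1, rose by 2.42. Cdc14a was the 1 called lower, at -1.07, a call lost in 3 of 23 alternatives (edgeR, DESeq2 and the Y-linked covariate). In the list for SCF ligases and the turnover of G1 regulators, 8 of 11 rose and 1 fell, with a median of 0.76. Cks1b, the cofactor with which Skp2 recognises p27, rose by 2.65 and Cks2 by 3.08. Fzr1, which directs another ubiquitin ligase to Skp2, rose by 1.70 and the deubiquitinase Usp28 by 1.65. Fbxo4 was the 1 called lower, at -0.58, a call lost in 4 of 23 alternatives, edgeR among them.

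The other cyclins and cyclin-dependent kinases, those outside the G1, S and M phase lists, were called in both directions. Of 13 other cyclin-dependent kinases, 4 rose, 3 fell and 6 were not called, with a median log2 fold change of 0.04. These shares, 30.8% and 23.1%, were near or below the 31.4% and 30.1% of all genes. Cdk14 fell by 1.19 and Cdk17 by 0.41, while Cdk20 rose by 0.97, Cdk11b by 0.72 and Cdk5 by 0.43. Of 12 other cyclins, 3 rose, 3 fell and 6 were not called (25.0% each way), with a median of 0.09. Ccng1 fell by 1.75 and Ccny by 0.70, and Ccnk rose by 0.79 and Ccnt1 by 0.74.

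Among 15 genes that act upstream of D-type cyclins, 6 fell, 2 rose and 7 were not called, with a median log2 fold change of -0.37. The shares, 40% lower and 13.3% higher, stand beside 30.1% and 31.4% of all genes. Ets1, an Ets family transcription factor, fell by 2.91 and Ets2 by 1.93, and Tcf7l2, a factor of Wnt signalling, fell by 2.54. Mycn rose by 2.48 and Mycl by 1.84. Mycn reached 7208 normalized counts in tumor 2, against a tumor median of 575. With DESeq2, 5 of the 15 were lower and 1 higher, and without tumors 1 and 7, 8 were lower and 2 higher.

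**Figure D4:**
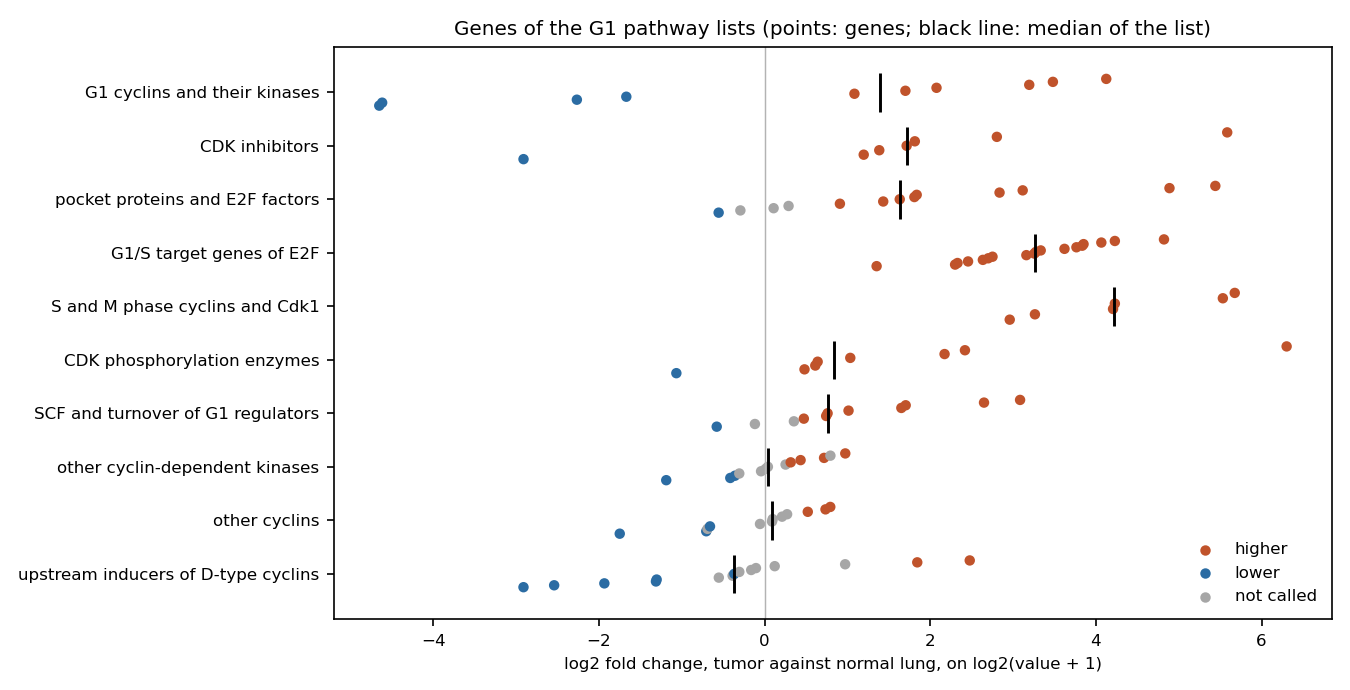
Log2 fold change, tumor against normal lung, of each gene tested in 9 pathway lists and among the 10 members, with 1 point per gene, coloured by its call, and a black line at each list's median. All genes of the E2F target and S and M phase lists lie above 0, while the other cyclins, other kinases and upstream inducers lie on both sides of 0.

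For each member, the genes of most similar pattern were ranked by Pearson's r of log2 values over the 12 samples among 16483 genes, as a description in which the difference between the groups weighs heavily and all points share libraries. Cdc25a was the most similar gene to Cdk2 (r = 0.992, and 0.981 over the 7 tumors). Dlgap3 led for Ccne1 (r = 0.997, and 0.926 over the tumors), Rimbp3 for Ccne2 (r = 0.991, and 0.939) and Gm5487 for Cdc25a (r = 0.996, and 0.959). Scd1 led for Ccnd2 (r = 0.996, and 0.993 over the tumors), Sox7 for Ccnd1 (r = 0.996, and 0.953) and Irak2 for Ccnd3 (r = 0.981, and 0.969). Insm1, a neuroendocrine transcription factor, led for Skp2 (r = 0.995, but 0.774 over the tumors), and Ranbp17 led for Cdk4 (r = 0.983, and 0.837 over the tumors). Cdk6 had the loosest leading match, Gm5424 (r = 0.966, and 0.969 over the tumors).

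Whether counting used the strand is not given, and 7 of the 10 members have annotated spans that overlap a listed gene on the opposite strand. LTO1, which overlaps Ccnd1, had 310 ± 19.0 normalized counts in tumors (SD, n = 7) and fell by 1.02. Pmel, which overlaps Cdk2, stood at 35.4 ± 11.5 in tumors (SD, n = 7) and Lmbrd2, which overlaps Skp2, at 1022 ± 259 (SD, n = 7). Ints8, which overlaps Ccne2, stood at 257 ± 51.3 in normal lung and 326 ± 59.5 in tumors, and was not called. Ccne2 itself had means of 23.7 and 236. The part of such overlaps in the members' values was not tested. Ccne1, Cdk6 and Cdc25a overlap no listed gene.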

How the data were processed

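Poly-A selected RNA from 5 normal lungs and 7 tumors was sequenced on an Illumina NovaSeq as paired reads, per the labels' protocols. The submitters' processing notes name featureCounts, DESeq2 and the build GRCm39, with no versions or settings. The deposited values are a normalized count signal, made by the authors as reads per gene divided by a size factor: in every column, 100% of values were whole multiples of 1 step (tolerance 0.001). Whether counting used the strand is not given in the sources used here. Symbols came from GENCODE release M21 and promoters from RefSeq GRCm38.p6; because the builds differ, coordinates are given for promoter windows alone, on GRCm38.p6.

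The 23674 genes whose mean was 1 or more were compared by limma 3.58.1 (R 4.3.3, lmFit, eBayes with trend) on log2(value + 1), with Benjamini-Hochberg adjustment and calls at an adjusted p under 0.05. Ratios and figures used Python 3.11.15, numpy 2.4.6, pandas 2.3.3, scipy 1.17.1 and matplotlib 3.10.9. The scripts were tested on simulated data. Whole reads from 11 samples were used for edgeR 4.0.16 and DESeq2 1.42.0. Those tests leave out tumor 3: its size factor was 1.01, and the check of units did not accept recovered reads there. Other alternatives were quantile normalization, equal totals, another pseudocount, other filters, tumors sharing a title number averaged or correlated, a Y-linked covariate, and leaving out samples.

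The members and lists were chosen with earlier results of these data known. Named genes are all members, up to 4 called genes of largest change in each pathway list with up to 2 called the opposite way, and for each member the 3 genes of highest r, of which the leading one is printed. A planned search of protein motifs was not made.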

Additional observations from a re-analysis of the deposited data

Results flagged for a closer look

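Each group's log2 values were compared for a sample that lies far from the others by Dixon's criterion. Among 110 groups, from 55 results, 10 held such a sample. Chance would give about 5.5 if the groups were independent. They share the same libraries, so the 10 cannot be read as an excess. Of the members, Cdk2 had normal lung 3 at 9.18, with the nearest normal lung at 8.89, and Cdk4 had tumor 7 at 10.67, with the nearest tumor at 11.09. The log2 ratio Cdk4/Cdk2 had normal lung 4 at 1.59, with the nearest at 1.08.

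Tumor 7 was also the lowest tumor for Tfdp1, at 11.43 with the nearest at 12.05, and for Cdc45, at 8.78 with the nearest at 9.51, and it was the highest for Ccng1, at 10.40 with the nearest at 9.23. Tumor 2 was the highest tumor for Mycn, at 12.82 with the nearest at 9.45, and the lowest for Rrm2, at 9.05 with the nearest at 11.03. Tumor 4 was the highest for Pkmyt1, at 10.73 with the nearest at 10.28. Normal lung 2 was the lowest normal lung for Cdk1, at 4.62 with the nearest at 5.41.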

How the results depend on the processing

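The counts of 6 members higher and 4 lower held under all 23 alternatives, except that 3 were lower with edgeR, with DESeq2 and with the Y-linked covariate, where Cdk6 lost its call. The other 9 members kept direction and call in all 23. The log2 ratio Ccnd1/Ccnd2, which did not pass in any alternative, changed sign to 0.43 without the trachea-titled tumors and ran from -0.29 to 0.23 with 1 sample left out. The other 5 ratios passed in every alternative run. Scaling all columns to equal totals moved the median log2 fold change of all genes from 0.04 to 0.24 and changed no member's call. No paired analysis was possible because normal lungs and tumors share no title number. Depth limits the low members most, Ccne2 above all.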

Other observations

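Cdk6 in tumor 1 was set beside 3 genes annotated next to it, a comparison chosen after its value was seen. Cdk6 had 3245 normalized counts in tumor 1, against a median of 235 and a highest value of 981 in the other 6 tumors. Fam133b had 408 in tumor 1 against a median of 405 in the others, Rbm48 had 340 against 330.2, and 1700109H08Rik had 596 against 643. The 3 neighbours were thus within the range of the other tumors. They lie on the same side of Cdk6, and no gene on the other side was compared.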
